A study of Mus musculus with 22 samples.

Results

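The genes described here are the 10 origin recognition and licensing factors Orc1 to Orc6, Cdc6, Cdt1, Gmnn and Dbf4. They were taken by symbol from the deposited table of normalized counts, where all 10 were present among 11208 genes. The cells were NIH/3T3, a mouse fibroblast line, carrying an integrated construct from which doxycycline induces E2F1, a transcription factor (the E2F1 line), or an empty vector in its place (the EV line). The labels do not say whether a line is a single clone or a pool, nor from which species the E2F1 sequence comes. All cells were starved for 48 h in 0.25% serum. The E2F1 line then received 500 ng/ml doxycycline and was sampled at 0, 2, 6 and 12 h. The EV line received either the same doxycycline, sampled at the same times, or 10% serum, sampled at 2, 6 and 12 h. Each of the 11 groups held 2 libraries of polyadenylated RNA, 22 in all. The EV 0 h libraries served as the start of both EV series, so doxycycline and serum changes in that line share them. No group stayed in 0.25% serum without doxycycline past 0 h. Changes with doxycycline in the EV line thus cannot be told apart from longer starvation. Nothing in the labels says that the replicates were separate cultures, so p-values measure only the spread between these libraries.

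The origin recognition complex (ORC), built from the products of Orc1 to Orc6, marks the sites where DNA replication can start. In G1, CDC6 and CDT1 join it and load the MCM helicase, a step called licensing. Geminin, the product of Gmnn, binds CDT1 and blocks a renewed round of loading, and DBF4 activates the kinase CDC7, which lets loaded helicases fire. Several of these genes are textbook E2F targets, and resting fibroblasts that re-enter the cell cycle have to make licensing factors anew.

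The promoters are shown because the members split into those that rose with E2F1 and those that did not. The windows come from RefSeq, build GRCm38.p6, and ran from 250 bases before a start site to 50 bases from it on. Of the 10 members, 9 matched the promoter table by symbol. The E2F-like motifs searched on both strands were TTTCCCGC, TTTCGCGC, TTTGCCGC, TTTGGCGC, TTCCCGCC, TTGGCGCC, TTCGCGCC, TTTGGCGG and TTTCCCGG, some of which overlap each other. At least 1 of these 9 was in 6.4% of 32851 windows. The motif TTTGAA, the core of the cell cycle homology region, was searched too and was in 17.9%. Each line below gives a stretch of a window 5′ to 3′ on the gene's strand, with matches in capitals, and a match on the other strand appears as its reverse complement.
Orc1 (chr4:108579374-108579463, plus strand): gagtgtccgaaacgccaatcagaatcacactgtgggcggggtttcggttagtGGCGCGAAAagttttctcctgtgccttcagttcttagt
Orc3 (chr4:34614933-34615022, minus strand): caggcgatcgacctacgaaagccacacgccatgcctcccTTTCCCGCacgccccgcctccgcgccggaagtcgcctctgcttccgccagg
Orc6 (chr8:85299552-85299641, plus strand): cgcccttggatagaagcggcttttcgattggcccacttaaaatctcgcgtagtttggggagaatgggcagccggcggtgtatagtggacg
Cdc6 (chr11:98907991-98908080, plus strand): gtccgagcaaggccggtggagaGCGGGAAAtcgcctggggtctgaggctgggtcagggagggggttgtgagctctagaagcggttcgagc
Cdt1 (chr8:122568035-122568064, plus strand): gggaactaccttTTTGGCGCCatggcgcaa
Dbf4 (chr5:8422707-8422796, minus strand): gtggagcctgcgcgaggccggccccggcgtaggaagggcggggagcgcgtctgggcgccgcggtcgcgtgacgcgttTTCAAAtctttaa
The Orc1 window held TTCGCGCC and TTTCGCGC, which overlap, with their first bases at -28 and -27 from the start site. The Cdt1 window held the overlapping TTTGGCGC and TTGGCGCC at 32 and 33, just before the ATG. Cdc6 had TTTCCCGC at -138 and Orc3 the same motif at -41. Of the 3 start sites listed for Orc4, 1 held TTCCCGCC at -141 and TTTGGCGG at -5. In Dbf4 only TTTGAA was found, at -3. None of these letters were in the windows of Orc2, Orc5 or Orc6. A match is a description of these windows and not a measured binding site.

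The libraries held between 34014608 and 46057140 normalized counts on the genes of the table, and no gene averaged under 99.6. E2f1 itself, counted as the mouse gene, checked the labels. The E2F1 line had 1703 and 1637 at 0 h, 1535 and 1755 at 2 h, 3806 and 3602 at 6 h, and 2683 and 2845 at 12 h. It rose by a log2 change of 1.15 at 6 h (limma, adjusted p 9.61e-08) and did not pass the test at 2 h (log2 change -0.02, adjusted p 0.946). With doxycycline alone every library was between 1307 and 1655. With serum its mean of 2 libraries was 771 at 2 h, 1071 at 6 h and 4431 at 12 h (log2 change 1.43, adjusted p 4.12e-09), the last above the induced line at 6 h (3704). A high level of this gene thus did not set the induced line apart from 12 h of serum. All 10 fibroblast markers were in the table. Their summed level was 1074603 and 1084119 in the E2F1 line before induction and 671797 and 694617 after 12 h. In the EV line it was 1161197 and 1215325 at 0 h and 808290 and 976501 after 12 h of serum. By limma 9 of the 10 fell and 0 rose at 12 h of E2F1, where 29.7% of all genes fell and 31.8% rose. At 12 h of serum 6 fell and 2 rose, where 29.7% of all genes fell and 36% rose. The part of these markers in the results was not tested. In such bulk libraries, fewer cells with an RNA and less of it per cell cannot be told apart. None of 10 epithelial, endothelial or blood markers was in the table.

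Several 2 h libraries stood apart from their line. The E2F1 line exceeded the EV line 8-fold or more at 0, 6 and 12 h for 9 genes. For these the 2 h doxycycline libraries of that line lay at a median of 64.4% of the way from the EV level to the E2F1 level. The EV libraries lay at 14.4% at 2 h of doxycycline (1.7 to 35.4% over the 9 genes) and at 12.7% at 2 h of serum (-0.777 to 280%). The 0, 6 and 12 h doxycycline groups of both lines set the scale and the choice of genes. Their closeness to its ends, as 0.131% for EV at 0 h, was thus fixed. Serum groups of 6 and 12 h, not used in that choice, lay at -1.07% (-3.19 to 71.3%) and -1.87% (-2.64 to 9.1%). Ddx3y, 1 of these 9, was chosen for display after its values were seen. Its E2F1 line values were 580 and 521 at 0 h and 329 and 316 at 2 h. Its EV line values were 9 and 4 at 0 h, 103 and 71 at 2 h of doxycycline and 132 and 170 at 2 h of serum. Whether these 2 h libraries hold RNA of both lines was not tested, so every 2 h value below carries that doubt. Fits without the 4 doxycycline libraries of 2 h, and without all 6 of 2 h, are given where they ended a call. The EV 0 h libraries also differed from each other: replicate 1 was the lower for 8 of the 10 members and for 5812 of all 11208 genes.

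In the E2F1 line most of the members rose at 6 h and 8 of 10 at 12 h, while none was called at 2 h. Set against the change in the EV line, 7 passed as higher at 12 h, Orc5 not among them. At 6 h, 7 of 10 members rose and none fell, with a median log2 change of 1.37 over the 10, where 51.7% of all genes were called, 28.8% higher and 22.9% lower, and the median of all genes was -0.03. Orc1, Orc2, Orc6, Cdc6, Cdt1, Gmnn and Dbf4 rose. At 12 h Orc5 joined them and Orc4 fell, so 8 were higher and 1 lower, where 61.5% of all genes were called, 31.8% higher and 29.7% lower. Orc3 alone was called at neither time. With quantile normalization, or with libraries scaled to equal totals, Orc4 was also called lower at 6 h (-0.30 and -0.29). At 2 h limma called none of the 10 where 1.86% of all genes were called, 0.865% higher and 0.99% lower. The median log2 change of the 10 was then 0.34. By limma 4 members (Orc1, Orc2, Orc6 and Cdt1) had an unadjusted p under 0.05, as did 1676 of all 11208 genes.

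**Figure D1:**
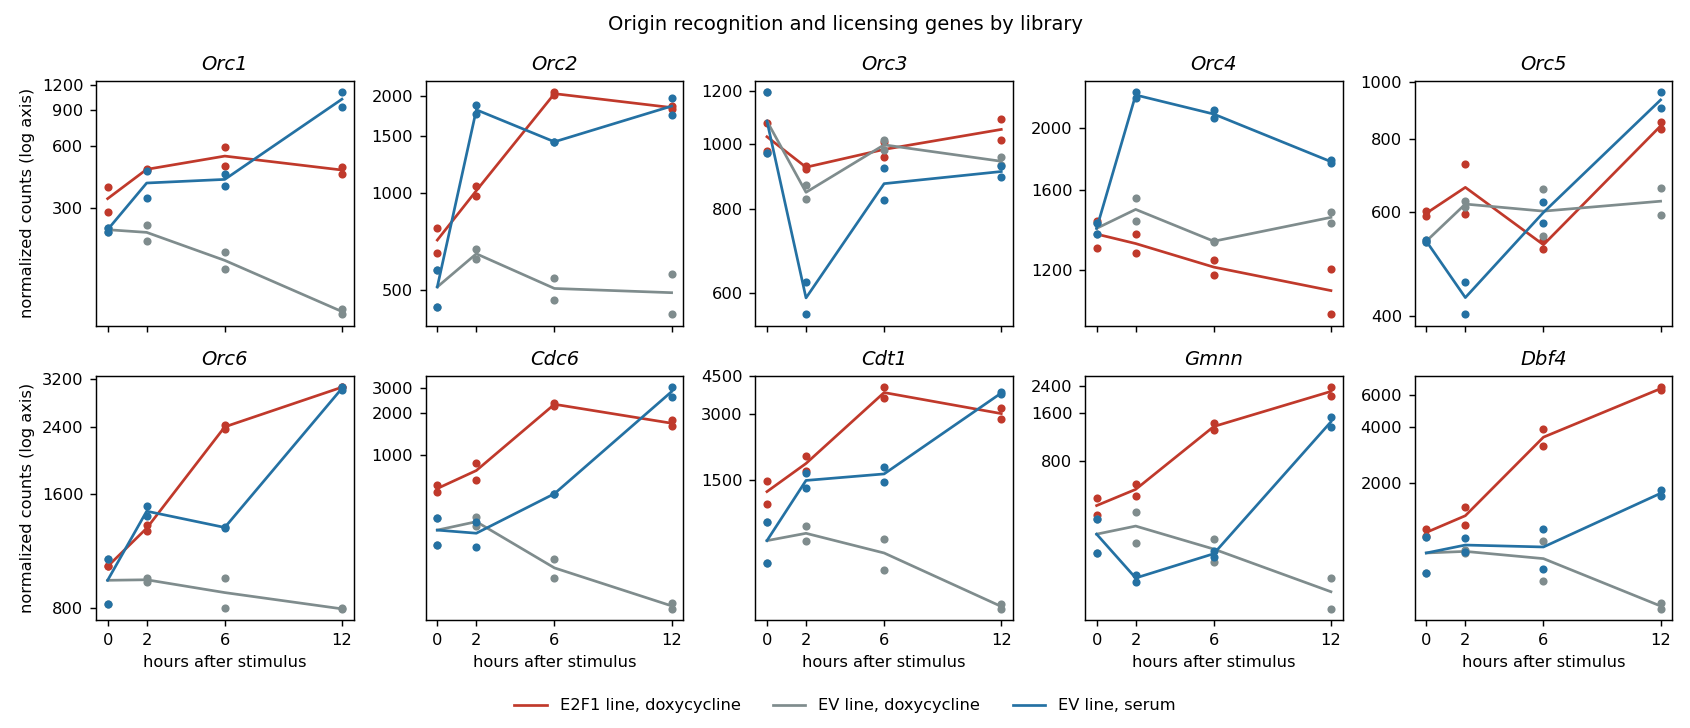
Normalized counts of each of the 10 genes (vertical log axis, its range set per gene) against hours after the stimulus (horizontal axis). Points are single libraries and lines join the means of 2, in red for the E2F1 line with doxycycline, grey for the EV line with doxycycline and blue for the EV line with serum, where blue points cover the grey EV 0 h points. Red lines for Cdc6 and Cdt1 are highest at 6 h, by differences from 12 h that did not pass the test in the main fit of all groups. Those for Gmnn and Dbf4 go on rising, and blue lines for Orc1, Orc6, Cdc6, Cdt1 and Gmnn rise mainly between 6 and 12 h.

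Without E2F1, doxycycline was followed by lower levels of 5 members at 12 h. Doxycycline and the added hours of starvation cannot be told apart here. Against EV 0 h, Orc1, Cdc6, Cdt1, Gmnn and Dbf4 fell and none rose, where 4.17% of all genes were called, 0.749% higher and 3.42% lower. No member was called at 2 h, where 7.35% of all genes were called, 4.93% higher and 2.43% lower. None was called at 6 h either, where 0.134% of all genes were called, all of them higher. By limma 2 members had an unadjusted p under 0.05 at 2 h (Orc2 and Orc3) and 2 at 6 h (Orc1 and Cdc6). Of all 11208 genes, 2612 had one at 2 h and 661 at 6 h. The 12 h falls depended on single libraries and on the fit, and with only the groups compared 1 of the 5, that of Cdc6, passed the test. Without EV 0 h replicate 2 the calls of Cdt1 (-0.66), Gmnn (-0.84) and Dbf4 (-0.59) were lost, and without EV 12 h replicate 1 the same 3 were lost (-1.02, -0.87 and -0.86). Dbf4 was also lost without EV 12 h replicate 2 (-0.98) and without the 4 doxycycline or all 6 libraries of 2 h (-0.92 each).

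With serum the share of members called lay near that of all genes at 2 and 6 h, and 9 of 10 were higher at 12 h. At 2 h, Orc1, Orc2, Orc4, Orc6 and Cdt1 rose and Orc3, Orc5 and Gmnn fell, where 70.9% of all genes were called, 37.5% higher and 33.5% lower. At 6 h, 6 rose (Orc1, Orc2, Orc4, Orc6, Cdc6 and Cdt1) and Orc3 fell, where 67.5% of all genes were called, 36.5% higher and 31% lower. By 12 h 9 of the 10 rose and none fell, with a median log2 change of 1.78, where 65.7% of all genes were called, 36% higher and 29.7% lower. The exception was Orc3, at -0.24 (adjusted p 0.0581). Orc3 was called lower with quantile normalization (-0.34), equal totals (-0.32) or no mean-variance trend (-0.24), and without EV 0 h replicate 1 (-0.39). With libraries scaled to equal totals, which moved the median of all genes at 2 h by -0.374, the 2 h calls of Orc1 (0.37) and Orc6 (0.24) were lost. Quantile normalization lost those of Orc5 (-0.07) and Gmnn (-0.39).

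**Figure D2:**
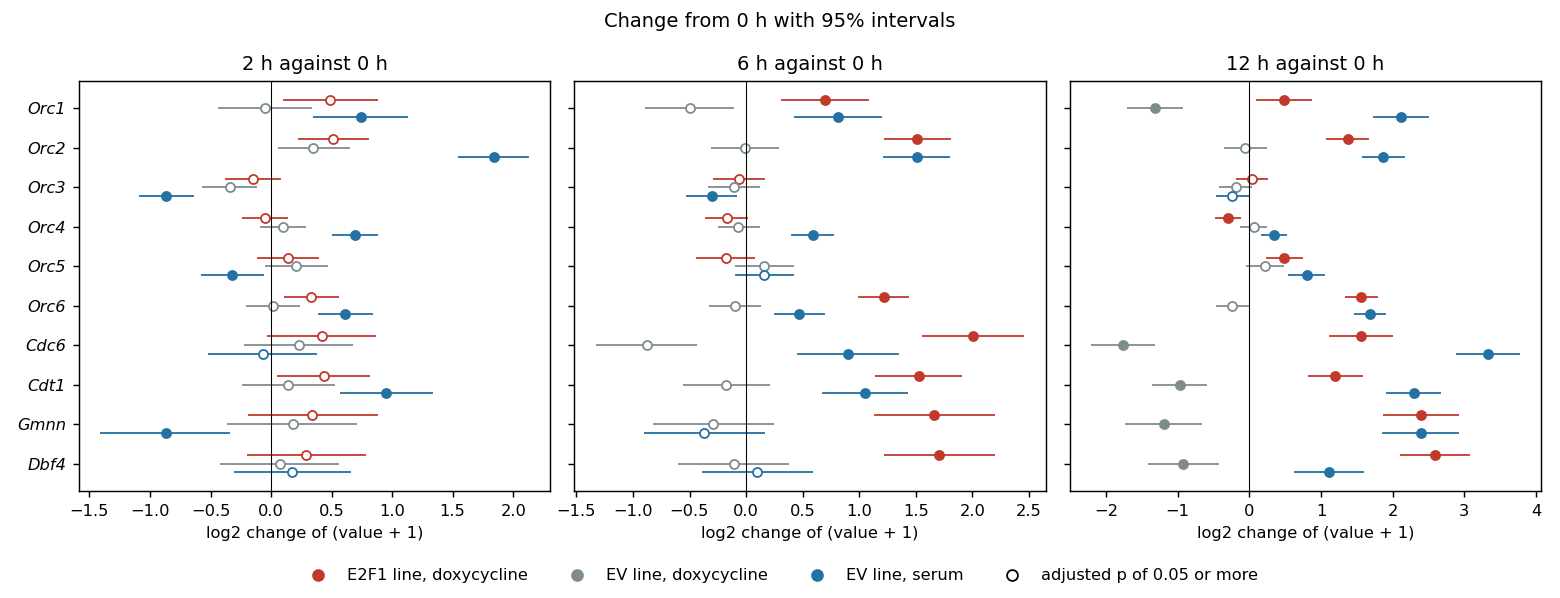
Log2 change of value + 1 from 0 h (horizontal axis) for each gene (rows) at 2, 6 and 12 h, with 95% intervals from limma. Red is the E2F1 line with doxycycline, grey the EV line with doxycycline and blue the EV line with serum, and filled circles passed an adjusted p of 0.05. No red or grey circle is filled at 2 h, and 5 grey circles are filled below 0 at 12 h.

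Orc1 (ENSMUSG00000028587.18, chromosome 4, 108579423 to 108614833) encodes the subunit of ORC that is made and degraded with the cell cycle. The E2F1 line had 286 and 378 normalized counts at 0 h, 465 and 459 at 2 h, 594 and 479 at 6 h, and 440 and 477 at 12 h. All libraries from 2 h on lay above both 0 h libraries, the 2 h libraries lay within the range at 12 h, and both of 6 h lay above it. The rise was 1.62-fold at 6 h (log2 change 0.70, SE 0.19, adjusted p 0.00449) and 1.39-fold at 12 h (0.48, adjusted p 0.0328), on the log2(value + 1) scale used for all folds here. With doxycycline alone the level went from 229 and 239 at 0 h to 247 and 207, 150 and 181, and 90 and 96 at 2, 6 and 12 h. The 12 h libraries were the lowest of all 22, and the fall passed the test (log2 change -1.32, SE 0.19, adjusted p 0.000847). With serum Orc1 stood at 336 and 456 at 2 h, 440 and 385 at 6 h, and 1103 and 935 at 12 h, the highest libraries of all, at 4.33-fold over 0 h (log2 change 2.11, SE 0.19, adjusted p 2.15e-08).

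The E2F1 calls of Orc1 rested on single libraries. At 6 h the call was lost without replicate 1 of that group (0.54) or without E2F1 0 h replicate 1 (0.50). At 12 h it was lost without either library of that group (0.54 and 0.42), without E2F1 0 h replicate 1 (0.28) and with equal totals (0.42). Its exons overlap those of Gm12743 on the opposite strand, and whether counting used strand is not given in the sources used here, so reads of the pair cannot be told apart.

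Orc2 (ENSMUSG00000026037.14, chromosome 1, 58462771 to 58505109) encodes a core ORC subunit. In the E2F1 line it stood at 778 and 648 at 0 h, 979 and 1051 at 2 h, 2052 and 2008 at 6 h, and 1853 and 1823 at 12 h, so the 6 and 12 h libraries lay far above the rest. The rise was 2.86-fold at 6 h (log2 change 1.51, SE 0.14, adjusted p 7.33e-08) and 2.59-fold at 12 h (1.37, adjusted p 1.86e-07). Doxycycline alone left it between 419 and 670. Serum brought it from 443 and 577 at 0 h to 1866 and 1752 at 2 h, 1442 and 1436 at 6 h, and 1971 and 1743 at 12 h. It was thus 3.57-fold over 0 h at 2 h of serum (log2 change 1.84, adjusted p 1.63e-09), the highest log2 change of the 10 members at that time, and 3.66-fold at 12 h. Its exons overlap Nif3l1 on the opposite strand, which changed by -0.39 at 6 h and -0.07 at 12 h of E2F1, and by 0.40 at 2 h of serum.

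Orc6 (ENSMUSG00000031697.12, chromosome 8, 85299632 to 85308278) encodes the smallest subunit. Its levels in the E2F1 line were 1031 and 1032 at 0 h, 1324 and 1275 at 2 h, 2432 and 2366 at 6 h, and 3053 and 3044 at 12 h. Each group lay above the one before, and replicates were close. It rose 2.32-fold at 6 h (log2 change 1.22, SE 0.11, adjusted p 3.53e-08) and 2.95-fold at 12 h (1.56, adjusted p 1.37e-09). The 8 EV libraries of the doxycycline series were between 796 and 1076. With serum it stood at 1484 and 1397 at 2 h, 1305 and 1306 at 6 h, and 3049 and 3006 at 12 h, which was 3.22-fold over 0 h (log2 change 1.69, adjusted p 5.1e-10). The 12 h libraries with E2F1 and with serum overlapped. Vps35, which shares exon bases with it on the opposite strand, changed by 0.30 at 6 h and 0.25 at 12 h of E2F1.

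Orc3, Orc4 and Orc5 encode the remaining subunits and varied the least over the 11 groups, by 1.83, 2.02 and 2.17-fold between the lowest and highest group mean. Orc3 (ENSMUSG00000040044.11, chromosome 4, 34570796 to 34614944) lay between 919 and 1090 in all 8 libraries of the E2F1 line. Its intervals there reached from -0.29 to 0.17 at 6 h and from -0.19 to 0.26 at 12 h. Serum lowered it to 558 and 623 at 2 h from 969 and 1194 (log2 change -0.87, SE 0.11, adjusted p 1.01e-06), and it was 920 and 826 at 6 h (-0.30, adjusted p 0.0197). That last call was lost without EV 0 h replicate 2 (-0.15) without serum 6 h replicate 2 (-0.23) or with only the groups compared (-0.30).

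Orc4 (ENSMUSG00000026761.12, chromosome 2, 48902824 to 48950277) moved in opposite directions with the 2 stimuli. E2F1 took it from 1433 and 1299 at 0 h to 1247 and 1180 at 6 h and 1207 and 1024 at 12 h, so the 12 h libraries were below both at 0 h. The 12 h fall was -0.30 (SE 0.09, adjusted p 0.00827), and it lost its call without E2F1 12 h replicate 2 (-0.18) or E2F1 0 h replicate 1 (-0.22). Serum raised it from 1424 and 1365 to 2273 and 2227 at 2 h (log2 change 0.69, SE 0.09, adjusted p 1.61e-06), 2132 and 2070 at 6 h (0.59), and 1762 and 1781 at 12 h (0.35, adjusted p 0.00253). All serum libraries lay above all 16 others. Its exons overlap Acvr2a and Mbd5 on the opposite strand, which changed by 0.35 and -0.39 at 12 h of E2F1 and by 0.33 and -1.30 at 2 h of serum. At 6 h of E2F1, where Orc4 was called lower only with quantile normalization (-0.30) or equal totals (-0.29), Acvr2a and Mbd5 were at 0.81 and -0.18.

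Orc5 (ENSMUSG00000029012.11, chromosome 5, 22486485 to 22550429) rose late with either stimulus. In E2F1 libraries it was 604 and 592 at 0 h, 597 and 727 at 2 h, 538 and 519 at 6 h, and 831 and 854 at 12 h, a 1.41-fold rise (log2 change 0.49, SE 0.12, adjusted p 0.00214). With serum it went from 538 and 534 to 457 and 402 at 2 h (-0.32, adjusted p 0.0271), 625 and 575 at 6 h, and 962 and 904 at 12 h (0.80, SE 0.12, adjusted p 1.97e-05). The 4 libraries at 12 h of E2F1 or serum were the highest of all 22. The fall at 2 h of serum was lost without either EV 0 h library (-0.32 and -0.33) without serum 2 h replicate 2 (-0.23) and with only the groups compared (-0.32). The pseudogene Gm15421 shares exon bases with Orc5 on the same strand, so its counts are uncertain.

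Set against exon length, the mean counts of the ORC subunits were not equal. The length was the union of all annotated exons, and which transcripts the cells expressed was not measured. The order between subunits is thus uncertain. Without division by length, Orc4 (1394.5) stood above Orc6 (948.5) in the EV line at 0 h. Orc6 had the highest mean normalized count per kb in each of the 11 groups, from 323 in the EV line at 12 h of doxycycline to 1230 at 12 h of E2F1 or serum. Orc1 was the lowest of the 6 in the EV line at 0 h, at 67.3 per kb, and reached 293 per kb at 12 h of serum, when only Orc6 and Orc2 (481) were above it. At 12 h of E2F1 it was again the lowest, at 132 per kb, close to Orc5 at 137 and against 477 for Orc2. At 2 and 6 h of E2F1 the lowest was Orc5.

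Cdc6 (ENSMUSG00000017499.15, chromosome 11, 98907801 to 98923940) encodes the ATPase that recruits CDT1 and the helicase to ORC, and its group means spanned 34.4-fold, the widest range of the 10. In the E2F1 line it stood at 609 and 538 at 0 h, 664 and 880 at 2 h, 2358 and 2254 at 6 h, and 1602 and 1770 at 12 h. Every 6 h library was above every 12 h library, and both groups were far above 0 h. The rise was 4.02-fold at 6 h (log2 change 2.01, SE 0.21, adjusted p 3.78e-07) and 2.94-fold at 12 h (1.56, SE 0.21, adjusted p 5.63e-06). The difference of -0.45 between 6 and 12 h did not pass the test (adjusted p 0.107). With only the groups compared by limma, that difference passed (adjusted p 0.00397).

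In the EV line with doxycycline, Cdc6 went from 226 and 351 at 0 h to 356 and 307 at 2 h. It was 130 and 179 at 6 h, and 78 and 87 at 12 h. The 12 h libraries were the lowest of all (log2 change -1.76, SE 0.21, adjusted p 0.000196). With serum it stood at 328 and 220 at 2 h, 527 and 526 at 6 h, and 3069 and 2615 at 12 h. Most of the serum rise came after 6 h: 9.32% of the rise in mean level from 0 to 12 h was reached at 6 h. At 12 h it was 10-fold over 0 h (log2 change 3.33, SE 0.21, adjusted p 5.45e-10), the highest log2 change of any member in any comparison with 0 h.

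Cdt1 (ENSMUSG00000006585.3, chromosome 8, 122568015 to 122573554) encodes the loading factor that geminin blocks. With E2F1 it was 1485 and 1155 at 0 h, 1641 and 1920 at 2 h, 4014 and 3552 at 6 h, and 3195 and 2855 at 12 h. As for Cdc6, the 6 h libraries exceeded those of 12 h, and all 4 exceeded the earlier ones, but the difference of -0.32 between 6 and 12 h did not pass the test (adjusted p 0.181). With only the groups compared by limma, that difference passed (adjusted p 0.0233). Cdt1 rose 2.88-fold at 6 h (log2 change 1.53, SE 0.18, adjusted p 1.61e-06) and 2.31-fold at 12 h (1.20, adjusted p 1.72e-05). With doxycycline alone it was 617 and 951, 916 and 779, 574 and 801, and 401 and 378 at 0, 2, 6 and 12 h, with a fall of -0.97 at 12 h (SE 0.18, adjusted p 0.00555). Serum raised it to 1371 and 1602 at 2 h (log2 change 0.95, adjusted p 0.000141), 1719 and 1467 at 6 h, and 3823 and 3706 at 12 h (2.30, SE 0.18, adjusted p 6.35e-09). Unlike Cdc6, the serum libraries of Cdt1 were already above both 0 h libraries at 2 h.

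Gmnn (ENSMUSG00000006715.11, chromosome 13, 24751845 to 24761923) encodes geminin, the inhibitor. In the E2F1 line it stood at 471 and 368 at 0 h, 484 and 578 at 2 h, 1390 and 1257 at 6 h, and 2057 and 2350 at 12 h, with each group above the one before. It rose 3.17-fold at 6 h (log2 change 1.66, SE 0.26, adjusted p 2.96e-05) and 5.27-fold at 12 h (2.40, SE 0.26, adjusted p 2.72e-07). Without E2F1, doxycycline gave 210 and 344, 380 and 243, 186 and 260, and 93 and 147 at 0, 2, 6 and 12 h, with a fall of -1.19 at 12 h (adjusted p 0.0121). Serum first lowered it, to 139 and 154 at 2 h (log2 change -0.87, SE 0.26, adjusted p 0.00521). It was still at 217 and 200 at 6 h (-0.37, adjusted p 0.213) and reached 1527 and 1306 at 12 h (2.39, SE 0.26, adjusted p 2.42e-07). Without EV 0 h replicate 2 the 2 h fall was -0.52 and lost its call, and without EV 0 h replicate 1 the 6 h value was -0.72 and gained one.

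The RNA of the loader was also set against that of its inhibitor within each library. The ratio of Cdt1 to Gmnn counts was 2.94 and 2.76 in the EV 0 h libraries, 9.86 and 10.4 at 2 h of serum, 7.92 and 7.33 at 6 h, and 2.50 and 2.84 at 12 h. The E2F1 libraries had 3.15 and 3.14 at 0 h, 3.39 and 3.32 at 2 h, 2.89 and 2.83 at 6 h, and 1.55 and 1.21 at 12 h. The serum libraries of 2 and 6 h lay above all others, and the E2F1 12 h libraries below all others. These ratios are given as values, without a test. They compare RNA counts not set per length, and only their change between groups can be read.

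**Figure D3:**
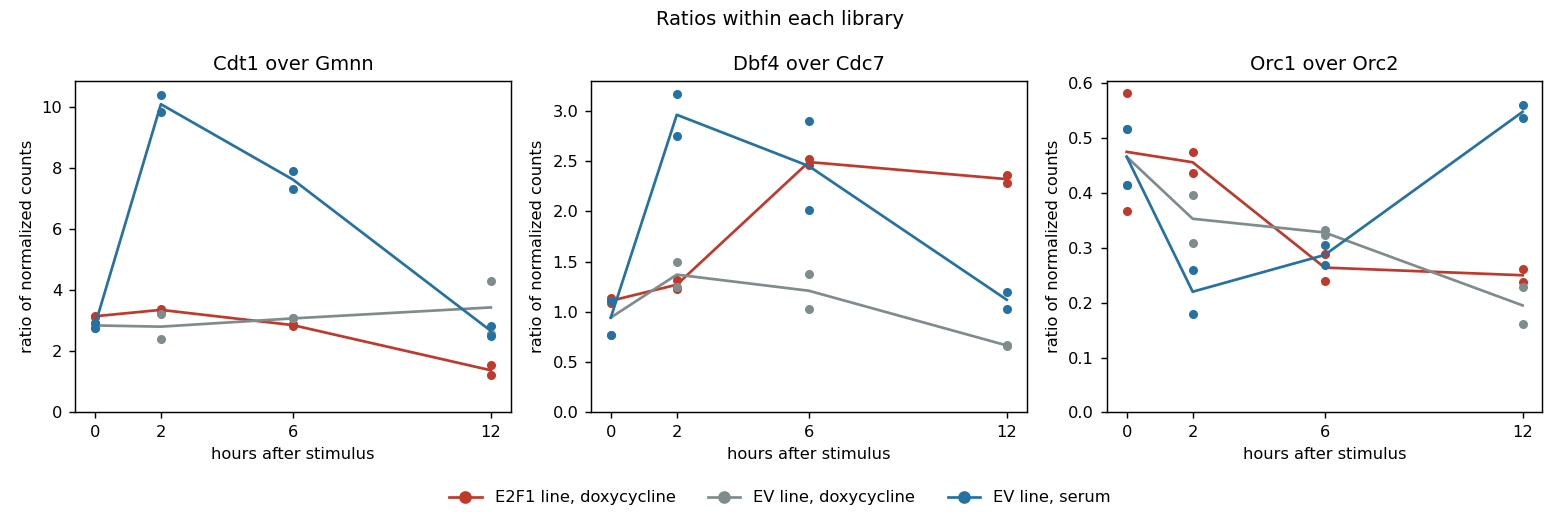
Ratio of normalized counts within each library (vertical axis from 0) against hours after the stimulus, for Cdt1 over Gmnn, Dbf4 over Cdc7 and Orc1 over Orc2, with lines through the mean of 2 libraries and the 3 colours as in the plot of counts by time. Cdt1 over Gmnn stands at 9.86 and 10.4 at 2 h of serum against 3.39 and 3.32 at 2 h of E2F1, and Orc1 over Orc2 is 0.56 and 0.536 at 12 h of serum against 0.237 and 0.262 at 12 h of E2F1.

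Dbf4 (ENSMUSG00000002297.16, chromosome 5, 8396973 to 8422716) encodes the activating subunit of the CDC7 kinase and had the highest log2 change of the members at 12 h of E2F1. With E2F1 it was 1117 and 1027 at 0 h, 1176 and 1466 at 2 h, 3909 and 3146 at 6 h, and 6608 and 6339 at 12 h. The 12 h libraries were the highest of all 22. The rise was 3.27-fold at 6 h (log2 change 1.71, SE 0.23, adjusted p 7.79e-06) and 6.04-fold at 12 h (2.59, SE 0.23, adjusted p 3.31e-08). Doxycycline alone gave 642 and 1016, 828 and 863, 587 and 958, and 410 and 444 at 0, 2, 6 and 12 h, with a fall of -0.92 at 12 h (SE 0.23, adjusted p 0.0315). With serum it was 997 and 834 at 2 h, 675 and 1112 at 6 h, and 1814 and 1683 at 12 h, so the 12 h libraries alone were both above those at 0 h. The serum rise at 12 h was 2.16-fold (log2 change 1.11, SE 0.23, adjusted p 0.000414).

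Cdc7 encodes the catalytic partner of DBF4. It fell at 2 h (log2 change -1.49, adjusted p 1.48e-07) and 6 h of serum (-1.28) and rose at 12 h (0.85, adjusted p 0.000165). E2F1 raised it at 6 h (0.55, adjusted p 0.00824) and further at 12 h (1.54, adjusted p 2.18e-07). The ratio of Dbf4 to Cdc7 counts in the E2F1 line was 1.09 and 1.14 at 0 h, 2.52 and 2.46 at 6 h, and 2.28 and 2.36 at 12 h. The EV libraries had 0.772 and 1.11 at 0 h, 2.75 and 3.17 at 2 h of serum, 2.01 and 2.90 at 6 h, and 1.03 and 1.20 at 12 h. At 12 h the E2F1 libraries were thus above the serum libraries, while at 6 h the groups overlapped.

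The change with E2F1 was next set against the change with doxycycline alone. At 6 h the difference between the lines passed the test as higher in E2F1 cells for 7 of 10 members (Orc1, Orc2, Orc6, Cdc6, Cdt1, Gmnn and Dbf4) and as lower for none, where 34.5% of all genes were called, 22.2% higher and 12.3% lower. At 12 h it passed as higher for the same 7 and as lower for Orc4, where 50.5% of all genes were called, 27.3% higher and 23.3% lower. The greatest differences at 12 h were 3.59 for Gmnn (SE 0.36, adjusted p 2.8e-07), 3.51 for Dbf4 (SE 0.33, adjusted p 1.37e-07) and 3.32 for Cdc6 (SE 0.30, adjusted p 1e-07), each made of a rise in the E2F1 line and a fall in the EV line. For Orc1 the 12 h difference of 1.80 (SE 0.26, adjusted p 1.79e-05) combined an EV fall of -1.32 with an E2F1 rise of 0.48. Orc5, although it rose at 12 h of E2F1, did not differ by the test from its change in the EV line (0.27, interval -0.10 to 0.64, adjusted p 0.211). At 2 h no member was called, where 0.143% of all genes were called, 0.0535% higher and 0.0892% lower. By limma 0 members had an unadjusted p under 0.05, against 872 of all 11208 genes.

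E2F1 was also set against serum, as the difference between the change from the E2F1 0 h libraries and the change from the EV 0 h libraries. At 6 h Orc6, Cdc6, Gmnn and Dbf4 had risen more with E2F1, and Orc4 had risen with serum only. So 4 differences were called higher and 1 lower, where 57.9% of all genes were called, 30.3% higher and 27.6% lower. At 12 h only Dbf4 had risen more with E2F1 by the test. Orc1, Orc2, Cdc6 and Cdt1 had risen less, and Orc4 had fallen with E2F1 and risen with serum. So 1 was called higher and 5 lower, where 48.8% of all genes were called, 25% higher and 23.8% lower. Cdc6, Cdt1 and Orc2 were higher in the E2F1 line at 0 h (by 1.02, 0.77 and 0.49). Mean levels at 12 h of E2F1 and of serum were 1838 and 1857 for Orc2, and 3025 and 3764.5 for Cdt1. For Cdc6 they were 1686 and 2842, for Orc1 458.5 and 1019, and for Orc4 1115.5 and 1771.5. Line and stimulus cannot be told apart in these differences. The 6 h differences were 2.03 for Gmnn (SE 0.36, adjusted p 0.000108), 1.61 for Dbf4 (SE 0.33, adjusted p 0.000421), 1.11 for Cdc6 (SE 0.30, adjusted p 0.00432) and 0.74 for Orc6 (SE 0.15, adjusted p 0.000413). Cdc6 turned from a positive difference at 6 h to -1.77 at 12 h (SE 0.30, adjusted p 0.000106).

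**Figure D4:**
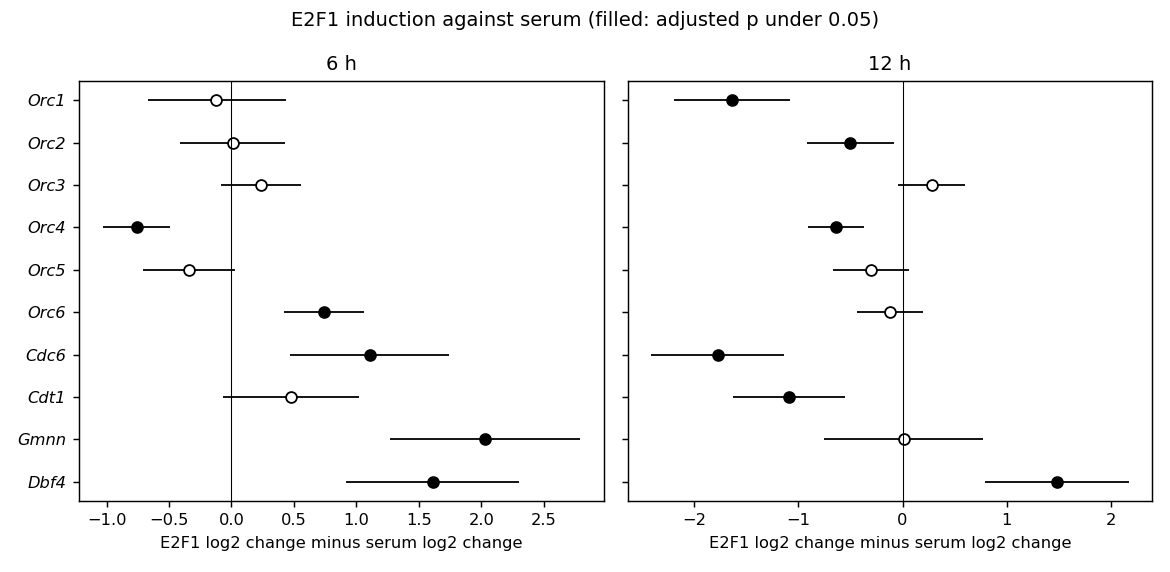
Difference between the log2 change with E2F1 and that with serum (horizontal axis) for each gene (rows) at 6 h and 12 h, with 95% intervals, filled where the adjusted p was under 0.05. At 6 h 4 filled circles lie right of 0 and 1 left of it, and at 12 h 1 lies right, Dbf4 at 1.48, and 5 left.

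Cdc6 and Dbf4 had the lowest and the highest difference of the 10 at 12 h. Orc1 had a difference of -1.64 (SE 0.26, adjusted p 5.86e-05) and Dbf4 one of 1.48 (SE 0.33, adjusted p 0.00119). Cdt1 stood at -1.09 (SE 0.26, adjusted p 0.00197) and Orc4 at -0.64 (SE 0.13, adjusted p 0.000432). Orc2, at -0.50 (adjusted p 0.0463), lost its call in many other fits, for example without EV 0 h replicate 1 (-0.31), without E2F1 0 h replicate 1 (-0.37), without serum 12 h replicate 1 (-0.41), without either E2F1 12 h library (-0.51 and -0.49) and without the 4 doxycycline or all 6 libraries of 2 h (-0.50 each). For Gmnn the difference was 0.01 with an interval from -0.75 to 0.77 (adjusted p 0.987), which leaves room for a difference of either sign. Orc6 had -0.12 with an interval from -0.44 to 0.20 (adjusted p 0.527).

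Changes between 6 and 12 h were taken for each stimulus. Between 6 and 12 h of E2F1 4 members rose (Orc5, Orc6, Gmnn and Dbf4) and none fell, where 35.3% of all genes were called, 15.1% higher and 20.2% lower. Between 6 and 12 h of serum 8 rose and Orc4 fell, where 39.9% of all genes were called, 19.3% higher and 20.6% lower. The highest of these serum changes were 2.76 for Gmnn, 2.43 for Cdc6 and 1.30 for Orc1. With E2F1 the corresponding values were 0.73 for Gmnn (adjusted p 0.033), -0.45 for Cdc6 and -0.22 for Orc1. The Orc6 call (0.35, adjusted p 0.0185) and the Gmnn call between 6 and 12 h of E2F1 were lost without any single library of the 4 compared (0.33 to 0.37 and 0.64 to 0.83), and that of Dbf4 (0.88) without E2F1 6 h replicate 2 (0.73). The serum calls of Orc2 (0.36) and Orc4 (-0.25) were lost in the same way (0.28 to 0.45 and -0.22 to -0.27), and without all 6 libraries of 2 h (0.36 and -0.25). That of Orc2 was also lost without the 4 doxycycline libraries of 2 h (0.36).

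Before any stimulus the lines were not equal. At 0 h Cdc6 was 2.03-fold higher in the E2F1 line (log2 difference 1.02, SE 0.21, adjusted p 0.00383), Cdt1 1.71-fold (0.77, adjusted p 0.00891) and Orc2 1.40-fold (0.49, adjusted p 0.0272), and no member was lower, where 15% of all genes were called, 8.86% higher and 6.17% lower. Without EV 0 h replicate 1 none of the 3 was called (0.70, 0.46 and 0.30). Without E2F1 0 h replicate 1, and with only the groups compared, Cdt1 (0.59 and 0.77) and Orc2 (0.36 and 0.49) lost their calls. The Orc2 call was also lost without all 6 libraries of 2 h (0.49). For each of the 3 genes both E2F1 0 h libraries were above both EV 0 h libraries.

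The rest of the replication start machinery was read from lists chosen with earlier results of these data known. The helicase list held Mcm2 to Mcm7, the subunits that CDC6 and CDT1 load, and Mcmbp, an MCM binding protein. All 7 rose at 6 h of E2F1, by log2 changes from 0.77 to 1.65, and at 12 h, by 0.57 to 1.24. For all genes the shares called higher were 28.8% and 31.8%. Serum raised all 7 at 12 h, by 0.98 to 2.78, where 36% of all genes were called higher. At 2 h of serum 3 were higher and 1 lower, so 4 of 7 were called where 70.9% of all genes were. Their serum rise at 12 h exceeded the E2F1 rise for all 7 (differences from -1.64 to -0.41), where 23.8% of all genes were called lower. At 0 h 6 of the 7 were already higher in the E2F1 line, where 8.86% of all genes were. The median log2 difference of the 7 was then 0.71. Each rise is counted from the 0 h level of its own line, so line and stimulus cannot be told apart. Mcm3 for instance rose by 1.65 at 6 h of E2F1 (adjusted p 2.03e-07), 1.24 at 12 h and 2.68 at 12 h of serum.

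Genes of origin firing formed the other large list, with 12 of 12 in the table, among them Cdc45 and the 4 Gins genes, whose products complete the active helicase. At 6 h of E2F1 11 of 12 rose with a median log2 change of 0.96, where 28.8% of all genes were called higher. At 12 h 11 rose with a median of 1.78, where 31.8% of all genes were called higher. Serum at 12 h raised all 12, with a median of 1.85, where 36% were called higher. Gins2 was the one not called at 12 h of E2F1 (0.31, adjusted p 0.203), while it rose by 1.70 with serum. Donson rose by 2.07 at 6 h and 1.95 at 12 h of E2F1. Between 6 and 12 h of E2F1, 8 of the 12 rose and none fell, and of the 7 helicase genes none rose and 2 fell, where 15.1% of all genes were called higher and 20.2% lower.

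The authors' deposited table for 12 h of E2F1 against 0 h listed Gmnn with a log2 fold change of 2.41 and Dbf4 with 2.60. The authors' deposited table for 6 h listed Cdc6 with 2.04. The authors' deposited table for 12 h of serum listed Orc1 with 2.14, Cdc6 with 3.35, Cdt1 with 2.32 and Gmnn with 2.42. These tables list only genes with an absolute log2 fold change of at least about 2, and no member was in the others.

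The genes whose group means were most like those of a member were taken as the 2 with the highest Pearson r over the 11 groups, as a description in which all points share libraries and scaling. For Cdc6 they were Mcm2 (0.989) and Mcm3 (0.988), both subunits of the helicase. For Cdt1 they were Rpa1 (0.974), part of the single-strand DNA binding complex, and Hells (0.973). Gmnn was closest to Rbl1 (0.995), a pocket protein, and Suv39h1 (0.993), and Dbf4 to Cenpi (0.994), a centromere protein, and Lmnb1 (0.990), a lamin. Orc1 was closest to Cdca7 (0.953) and Rpe (0.952), Orc2 to Myo19 (0.992) and Srpk1 (0.991), and Orc6 to Sart3 (0.991) and Hspa14 (0.984). Orc3 was nearest to Ndrg3 (0.955) and Vps72 (0.947), Orc4 to Adam19 (0.993) and Pdrg1 (0.987), and Orc5 to D6Wsu163e (0.916) and Gm7879 (0.903). Among the members themselves the highest r was 0.96 between Cdc6 and Cdt1, and the lowest was -0.79 between Orc3 and Orc4.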

How the data were processed

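Per the labels' protocols, 22 polyA libraries of NIH/3T3 cells were read in pairs of 150 bp. FastQC, Trimmomatic, HISAT2, featureCounts and DESeq2, with build mm10, are named without versions in the submitters' processing notes. The annotation and the use of strand are not given in the sources used here. The main table holds normalized counts that the authors scaled and rounded to whole numbers, treated here as a score and not as raw counts. The authors' deposited tables of comparisons hold a log2 fold change and an adjusted p-value, and were used only where named.

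Each value was taken as log2(value + 1) and fitted by limma 3.58.1 (R 4.3.3), with a mean for each of 11 groups over 22 libraries, 11 residual degrees of freedom and a mean-variance trend. Adjusted p-values are by the Benjamini-Hochberg method over all 11208 genes of a comparison, with a threshold of 0.05. A filter of at least 10 in 2 libraries removed no gene. Tested on simulated data with 200 changed genes, the code called 182 in the right direction and 8 unchanged genes. Positions are from GENCODE M21 on GRCm38, where 10977 of the 11208 identifiers occurred. Exon lengths per kb are unions of its exons. Tables and figures were made with Python 3.11.15, pandas 2.3.3, numpy 2.4.6 and matplotlib 3.10.9.

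The members and lists were chosen with earlier results of these data known. Every member is named, with E2f1, some of the list genes past the threshold, and the 2 genes most like each member. Alternatives were a pseudocount of 8, no filter, a mean of at least 500, quantile normalization, equal totals, a replicate block, no trend, a 2-fold minimum, a fit of only the groups compared, no EV doxycycline 2 h libraries and leaving out each library. The fits without the 4 doxycycline 2 h libraries, and without all 6 of 2 h, were added after seeing the data. In the list for removal of licensing factors, Skp1 was not in the table.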

Additional observations from a re-analysis of the deposited data

Results flagged for a closer look

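The change with doxycycline differed between the E2F1 and EV lines, by the limma test of the difference itself, for 7 members at 6 h and 8 at 12 h. Among the ORC subunits the E2F1 minus EV difference in log2 change was 1.20 at 6 h and 1.80 at 12 h for Orc1, 1.52 and 1.43 for Orc2, and 1.32 and 1.80 for Orc6. For Cdc6 it was 2.89 and 3.32, and for Cdt1 1.70 and 2.18. Gmnn had 1.95 at 6 h and 3.59 at 12 h, and Dbf4 1.82 and 3.51. Orc4 differed at 12 h only, by -0.35 (adjusted p 0.0273). Its call was lost without E2F1 12 h replicate 2 (-0.23), E2F1 0 h replicate 1 (-0.28), EV 0 h replicate 2 (-0.32) or EV 12 h replicate 1 (-0.32), and with only the groups compared (-0.35). None of the other 14 differences lost its call in any fit that kept the main call rule.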

How the results depend on the processing

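No called member value changed sign under any setting, and 14 uncalled values did so under other settings and 53 when a library was left out. In fits that left out a library, the lone sample of its group was assumed to vary like the other groups. With only the groups compared, 1 member was called at 2 h of E2F1 (Orc2), 1 of 5 remained at 12 h in the EV line, and 1 of 3 between the lines at 0 h. Quantile normalization called 1 at 2 h in the EV line. With at least a 2-fold change required, 3 members were called at 12 h in the EV line, 1 at 2 h of serum, 2 at 6 h of serum, 3 for E2F1 minus serum at 6 h, 0 between 6 and 12 h of E2F1, and 1 between the lines at 0 h. With each library left out in turn, counts ran from 0 to 1 at 2 h and at 6 h in the EV line, from 2 to 6 at 12 h, from 1 to 2 between 6 and 12 h of E2F1, and from 0 to 4 between the lines. The cause was not tested where the setting itself does not give it.

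The replicate numbers did not pair the libraries by the rule used. The correlation of same-numbered deviations over 55 pairs of groups ran from -0.28 to 0.45 with a median of 0.03. Even so, 18 of 22 libraries deviated most like one of their own number. The 2 libraries of a group deviate as mirror images, so these are not 22 separate answers. With a replicate block, only Orc2 lost calls, for E2F1 minus serum at 12 h (-0.50) and between 6 and 12 h of serum (0.36). Counts over all genes moved most in the small comparisons. At 2 h of E2F1 208 ran from 26 to 596, at 2 h in the EV line 824 from 157 to 1025, at 6 h 15 from 1 to 30, and at 12 h 467 from 26 to 803. Between the lines, 16 at 2 h ran from 2 to 51, and 1684 at 0 h from 652 to 1961. Scaling to equal totals moved the share of calls that were higher from 55.7% to 41.5% at 6 h of E2F1, 52.8% to 30.7% at 2 h and 54.1% to 37.9% at 6 h of serum, and 64.5% to 48.3% for E2F1 minus EV at 6 h.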

Other observations

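Genes for removal of licensing factors were called about as often as all genes with E2F1. Of 8 in the table, 4 rose at 6 h and none fell, where 51.7% of all genes were called. At 12 h 5 rose and Ddb1 fell (-0.50), where 61.5% were called. Skp2 and Dtl, which give CDT1 over to ubiquitin ligases, rose by 1.89 and 2.07 at 6 h and by 2.27 and 1.34 at 12 h of E2F1, and by 1.67 and 2.62 at 12 h of serum. Fzr1, an activator of the anaphase-promoting complex in G1, rose by 1.36 at 12 h of E2F1 (adjusted p 4.33e-08) and fell by 0.41 at 12 h of serum (adjusted p 0.00764). Cdc20, the mitotic activator, rose by 1.38 at 12 h of E2F1 and was at -0.44 with serum (adjusted p 0.235).

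All 3 chromatin partners of ORC rose at 12 h of E2F1 and of serum, where 31.8% and 36% of all genes were called higher. Kat7, a histone acetyltransferase that acts with CDT1, rose by 0.77 and 0.27, Rif1 by 1.34 and 0.99, and Lrwd1, an ORC-binding protein, by 0.82 and 0.63. Lrwd1 was at 0.04 at 6 h of E2F1 (adjusted p 0.771), when the other two rose by 0.73 and 1.33.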
